A study of Mus musculus with 36 samples.

Results

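The mitochondrial ribosomal protein genes of mouse liver were followed over the day in chronic intermittent hypoxia (IH) and in control mice. They were chosen by name, as every gene whose symbol starts with Mrpl (large subunit) or Mrps (small subunit), that is listed on 1 row of the expression tables and has a mean of at least 1 FPKM (fragments normalised for transcript length and library size) over the 36 libraries. All 77 genes with such symbols met both conditions, of 24066 symbols listed on 1 row, and all 77 were above 0 in every library. No gene lay below the limit, and the member closest above it was Mrpl19 at 2.18 FPKM.

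Both groups were wild-type male C57BL/6JRj mice of 16 weeks, kept in 12 h light and 12 h dark with food always present. The IH group received 60 cycles of hypoxia and reoxygenation per hour, with a nadir of 5% and a peak of 21% inspired oxygen, each day from ZT0 (lights on) to ZT8 for 4 weeks. The control group received cycles of air and air. Livers were taken at ZT0, ZT4, ZT8, ZT12, ZT16 and ZT20 with 3 libraries per condition and time point, which makes 18 libraries per condition. Each library came from an animal of its own according to the methods. The daily hypoxia was under way at ZT4 and ended at ZT8.

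Mitochondria keep their own ribosomes, which translate the small set of membrane subunits of the respiratory chain and ATP synthase that are encoded in mitochondrial DNA. Every protein of this ribosome is encoded in the nucleus, made in the cytosol and imported. Part of the set descends from bacterial ribosomal proteins, while other members exist only in mitochondria and build up the enlarged protein shell of the mitoribosome. In the list, 50 genes encode large subunit proteins (30 grouped here as having a bacterial counterpart and 20 as mitochondrion-specific), and 26 encode small subunit proteins (16 and 10). In this grouping Mrps18a and Mrps18b are among the mitochondrion-specific genes, and Mrps18c is among those with a bacterial counterpart. The names do not always give the place, since the products of Mrps18a and Mrps30 sit in the large subunit. Mrps36, kept because of its symbol, encodes a component of the oxoglutarate dehydrogenase complex of the citric acid cycle and is not counted in either subunit.

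The genes lie on 17 chromosomes. In the GENCODE M21 annotation (GRCm38), 19 of the 77 members (24.7%) start within 1000 bp of another protein-coding gene that runs the opposite way, compared with 7.2% of 21951 protein-coding genes. RefSeq promoters were found for 68 members, 74 promoters in all, and the 250 bases before the start were searched on both strands for 5 motifs. CCGGAAG, the core bound by ETS factors such as GABPA, was in 23.0% of members' promoters and in 6.91% of all 32851 promoters. CGCATGCG, part of the NRF1 site, was in 9.5% of them and in 1.55% of all. AAGATGGC, a YY1 motif, was in 5.4% against 1.56%, TGACGTCA, a CREB motif, in 2.7% against 1.55%, and the E-box CACGTG in 9.5% against 6.02%. The 7 member promoters with the E-box belong to only 5 members, because overlapping promoters of Mrpl2 hold the same site. GABPA, NRF1 and YY1 are transcription factors known for nuclear genes of mitochondria. The member promoters had a median GC content of 58.4%, against 52.4% over all promoters, and 38 members held none of the 5 motifs in this window. These are matches of letters, and binding was not measured. Exonic bases are shared with another protein-coding gene in 23 members, on the same strand in Mrps6 (with Slc5a3 and Gm49711), Mrpl53 (with Gm42688), Mrps24 (with Urgcp) and Mrps34 (with Nme3). The library kit keeps the strand, and the strand setting of the counting is not given in the sources used here, so the values of these members are uncertain.

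The promoters of 4 genes are printed because these genes stand for the patterns described below. These are a night peak in IH (Mrpl34 and Mrps22), a day peak in IH (Mrpl2) and no call in either condition in the main fit (Mrpl22). Mrpl22 was called in IH when no filter on low values was applied. Like Mrpl17, it holds an NRF1 and an ETS motif together. The printed promoters come from RefSeq on GRCm38.p6 and run 5′ to 3′ on the gene's strand. Mrpl2 has further, overlapping promoters that are not printed. Capitals mark CCGGAAG in Mrpl34, Mrps22 and Mrpl22, CGCATGCG also in Mrpl22, and CACGTG in Mrpl2.
Mrpl34 promoter, chr8:71464676-71464925, plus strand: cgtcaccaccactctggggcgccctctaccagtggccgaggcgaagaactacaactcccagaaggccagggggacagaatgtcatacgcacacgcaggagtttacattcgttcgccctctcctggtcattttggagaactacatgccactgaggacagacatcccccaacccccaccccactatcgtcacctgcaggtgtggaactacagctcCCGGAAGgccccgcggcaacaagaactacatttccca
Mrps22 promoter, chr9:98601680-98601929, minus strand: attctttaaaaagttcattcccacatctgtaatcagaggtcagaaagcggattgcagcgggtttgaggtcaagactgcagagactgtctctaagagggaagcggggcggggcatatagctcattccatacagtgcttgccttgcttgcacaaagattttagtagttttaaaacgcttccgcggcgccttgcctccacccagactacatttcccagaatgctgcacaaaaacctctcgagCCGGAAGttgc
Mrpl2 promoter, chr17:46645979-46646228, plus strand: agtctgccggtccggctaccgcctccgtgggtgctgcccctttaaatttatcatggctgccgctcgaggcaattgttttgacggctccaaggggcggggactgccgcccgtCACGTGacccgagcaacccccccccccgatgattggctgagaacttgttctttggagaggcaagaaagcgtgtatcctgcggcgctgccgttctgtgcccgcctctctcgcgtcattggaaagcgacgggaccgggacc
Mrpl22 promoter, chr11:58171414-58171663, plus strand: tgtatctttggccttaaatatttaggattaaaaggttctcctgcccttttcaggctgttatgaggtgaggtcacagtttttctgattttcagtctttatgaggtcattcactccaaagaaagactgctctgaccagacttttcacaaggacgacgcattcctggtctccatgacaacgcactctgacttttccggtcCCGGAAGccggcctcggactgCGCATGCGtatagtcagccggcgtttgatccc

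A library that touches several results has to be named first. Control ZT12 replicate 2 had a summed FPKM of 808274, against 561964 to 626371 in the other 35 libraries. The mean of the 77 members on the log2(FPKM + 1) scale, each centred on its own mean, was 0.53 in this library and −0.17 to 0.14 in the others. The number of members above their own mean did not set it apart, at 66 of 77 against up to 65 in the others. The members had a median exonic length of 2255 bases, against 4201 over all genes tested. In this library the genes of the lowest length quartile stood 0.69 above those of the highest length quartile (medians, same scale), while this difference was −0.12 to 0.07 in the other libraries. Cytosolic ribosomal protein genes (mean of 85 genes 1.04) and complex I genes (45 genes, 0.71) were also high in it. Neutrophil markers summed to 222 FPKM in this library and to at most 14.1 in any other, and Kupffer cell markers to 125 against at most 54.2, and erythroid markers to 387 against at most 282. Hepatocyte markers were also highest in this library, at 66998 FPKM against at most 58683, and summed to at least 41044 FPKM in each library. Endothelial (39.5 FPKM), stellate (53.4 FPKM) and cholangiocyte markers (31.5 FPKM) were not raised in it, with up to 49.5, 99.3 and 66.8 FPKM in other libraries. Lymphocyte markers summed to at most 1.68 FPKM in any library. Their part in the members' values was not tested. In whole liver, fewer cells of a type and less RNA per cell cannot be told apart. It also held 20546 FPKM of Saa1, an acute phase gene, which was above 10000 FPKM in 3 libraries (with IH ZT0 replicate 2 and control ZT16 replicate 3). Many of the results that touch ZT12 or control are also given without this library.

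**Figure D1:**
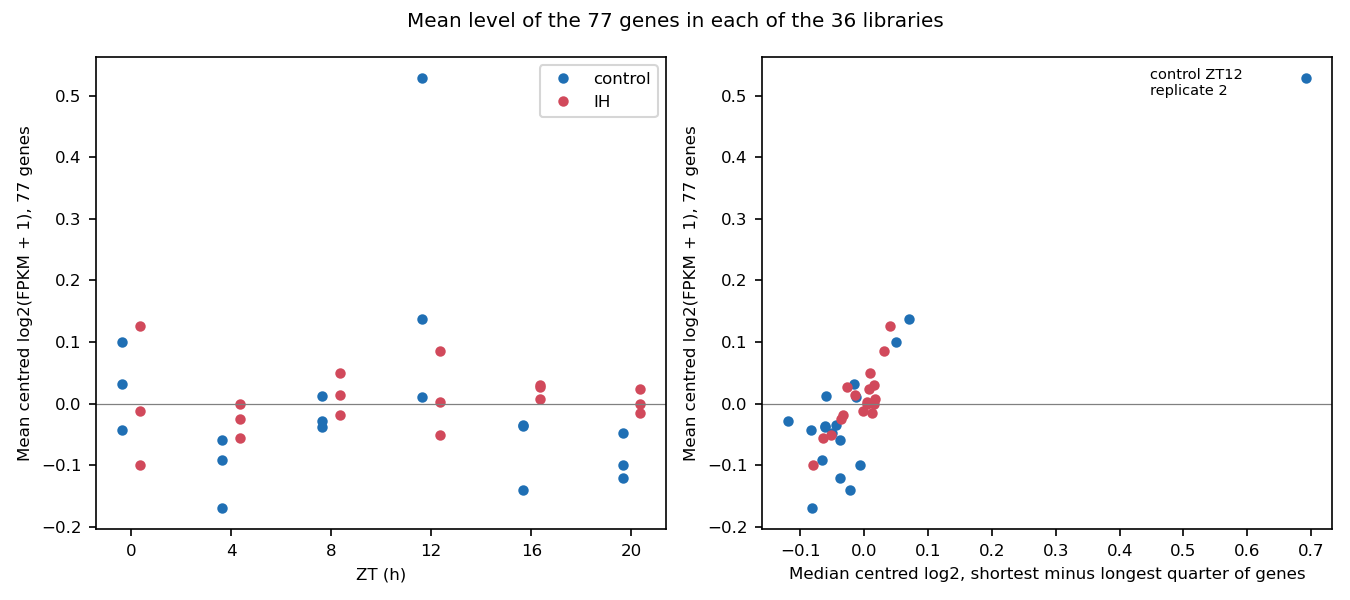
Mean of the 77 genes in each library on the log2(FPKM + 1) scale, each gene centred on its mean over 36 libraries. The left panel shows it against the sampling time (ZT, h), and the right panel against the difference between the lowest and the highest length quartile of all genes in the same library (log2), with control in blue and IH in red. Control ZT12 replicate 2 stands at 0.53 and 0.69, and the other 35 libraries between −0.17 and 0.14 on the vertical axis.

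The members differed more from each other than any did between conditions. Mean levels over all libraries ran from 2.18 FPKM for Mrpl19 to 107 FPKM for Mrpl12, a 49.1-fold range, with a median of 22.7 FPKM that is above 83.7% of the 13215 genes tested. The genes tested are those with a mean of at least 0.1 FPKM, and 67 members exceeded 10 FPKM. Mrpl12, whose product forms the stalk of the large subunit and also binds the mitochondrial RNA polymerase, Mrps21 (106 FPKM) and Mrpl52 (105 FPKM) were the highest, and Mrpl19, Mrps25 (3.85 FPKM) and Mrpl35 (4.78 FPKM) the lowest. Genes whose products join the same particle thus had mRNA levels per transcript length that varied widely. The middle part of the distribution was narrower, from 14.0 to 39.1 FPKM between the quartiles. Genes with a bacterial counterpart had median levels of 25.1 FPKM in the large and 24.8 FPKM in the small subunit, and mitochondrion-specific genes 19.9 and 16.8 FPKM.

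**Figure D2:**
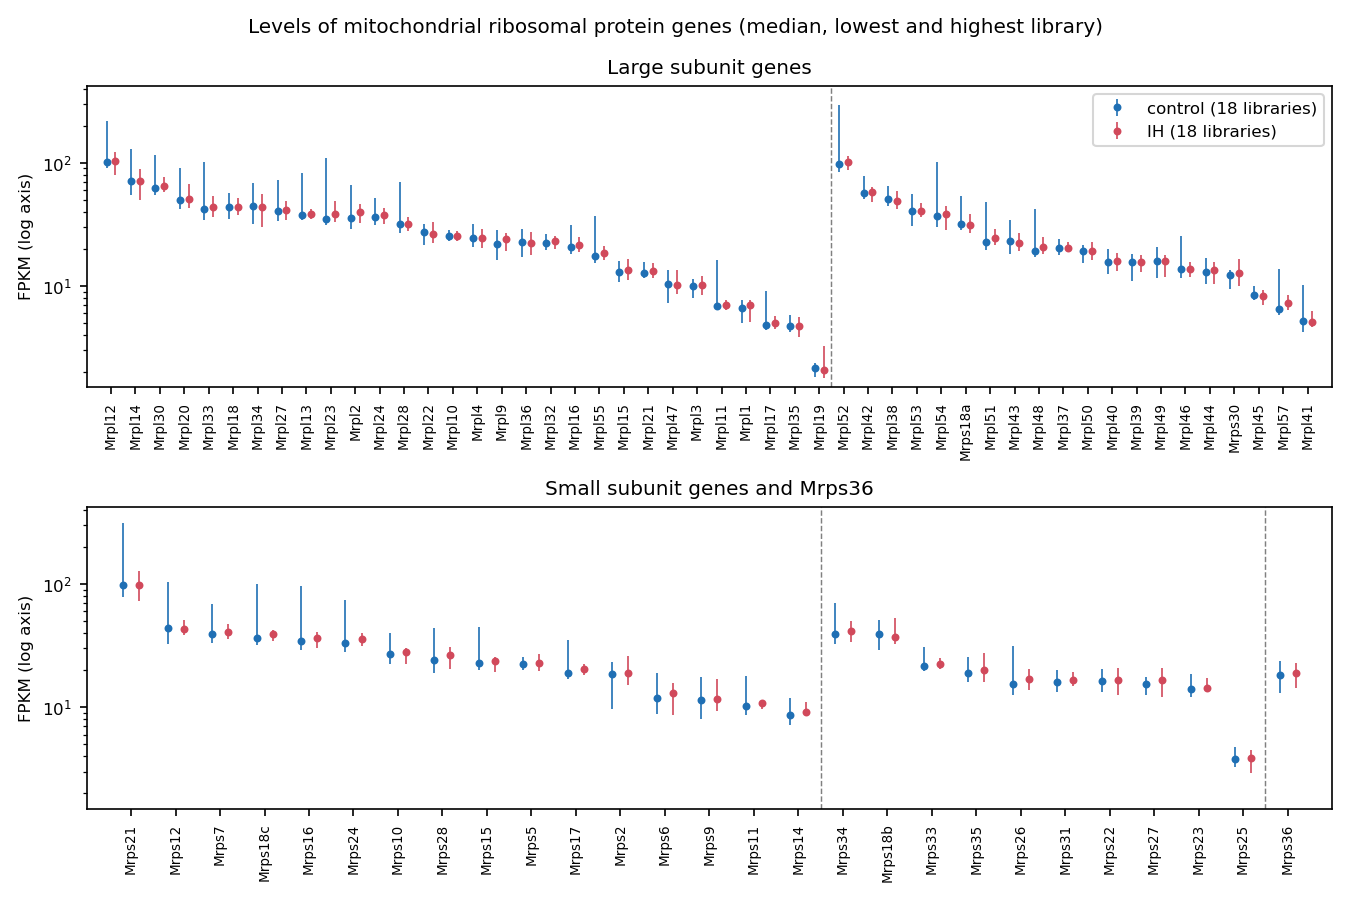
Level of each member (FPKM, log axis) in control (blue) and IH (red), with the point at the median and the line from the lowest to the highest of 18 libraries. Dashed lines separate genes with a bacterial counterpart (left) from mitochondrion-specific genes and from Mrps36, and the upper ends of many control lines are control ZT12 replicate 2. Mrpl12, Mrpl52 and Mrps21 are the 3 members above 100 FPKM.

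Over all time points, no member passed the test for a difference in level between IH and control. In the limma fit on log2(FPKM + 1) with Benjamini-Hochberg adjustment over all genes, 0 of 77 members passed an adjusted p of 0.05, against 0.356% of all genes tested, and the smallest adjusted p of a member was 0.383. At an unadjusted p of 0.05, 3 members (3.90%) were past it, against 10.8% of all genes, and all 3 had a higher mean in IH. They were Mrps35 (small subunit; log2 difference 0.10 ± 0.04 SE), Mrps36 (0.10 ± 0.05) and Mrps30 (large subunit; 0.08 ± 0.04). Mrps36 averaged 19.1 ± 2.51 FPKM under IH and 17.8 ± 2.57 FPKM under air (SD over 18 libraries each), and the ranges, 14.5 to 22.8 FPKM and 13.1 to 23.7 FPKM, overlapped. Without control ZT12 replicate 2, 0 members passed the adjusted threshold, and 16 members (20.8%) were past an unadjusted p of 0.05, all with a higher mean in IH, against 9.65% of all genes higher and 3.37% lower. With all ZT12 libraries left out, 6 members passed, Mrpl23, Mrpl55, Mrpl57, Mrps17, Mrps24 and Mrps35 (7.79%, against 4.59% of all genes).

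The intervals were narrow. The 95% confidence interval of the log2 difference reached at most 0.19 to either side of its estimate in each of the 77 members, and its bounds over all members ran from −0.24 (Mrps21) to 0.24. The median log2 difference was 0.01 over the members and 0.03 over all genes. The next genes by p were Mrps14 among those with a higher mean in IH (0.08 ± 0.04) and, among those with a lower mean, Mrpl38 (−0.06 ± 0.04), Mrpl28 (−0.07 ± 0.06), Mrps21 (−0.09 ± 0.08) and Mrps18a (−0.05 ± 0.05). The differences of the last 3 were nearer 0 without control ZT12 replicate 2, −0.014 ± 0.030 for Mrpl28, −0.010 ± 0.030 for Mrps21 and −0.016 ± 0.032 for Mrps18a.

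Rhythms were assessed by a cosine of 24 h fitted within each condition, with a rhythm called at a nominal P of 0.01 from 18 libraries (17 where a library was left out). In control livers 4 of 77 members (5.19%) passed, where 20.0% of all genes did. The 4 were Mrpl44, Mrps2, Mrpl20 and Mrps30. In IH livers 27 members (35.1%) passed, where 39.9% of all genes did. At a nominal P of 0.05 the shares in IH were 55.8% of members and 55.6% of all genes, and in control 31.2% and 34.8%. When control ZT12 replicate 2 was left out, 13 members passed in control, among them all 4, and the share of all genes was 27.1%. The order of the 2 counts depends on the test. JTK_Cycle, a rank test, called 10 members in control (19.2% of all genes) and 20 in IH (33.5% of all genes). An F test over the 6 time points called 21 in control (21.0% of all genes) and 16 in IH (39.7% of all genes). The cosine with a spread shared by both conditions called 24 in control (28.5% of all genes) and 12 in IH (31.5% of all genes).

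Mrpl44, a member of the RNase III fold family at the large subunit, had the smallest P in control (8.73e-05, and 6.25e-05 without control ZT12 replicate 2). Its 3 control libraries held 16.7, 14.5 and 15.4 FPKM at ZT0 and 10.8, 11.2 and 10.4 FPKM at ZT12, with no overlap. In IH they held 15.7, 13.5 and 13.2 FPKM at ZT0 and 10.4, 14.1 and 11.6 FPKM at ZT12, which overlapped, and P was 0.0145. The fitted peaks were at ZT0.759 in control and ZT0.279 in IH.

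Mrps2, the small subunit homologue of bacterial S2, peaked at ZT22.4 in control (P = 0.00469, n = 18). Control ZT12 replicate 2 was low for this gene, with 9.73 FPKM beside 15.4 and 15.0 FPKM in the other ZT12 controls and 22.3, 22.7 and 23.2 FPKM at ZT0. The rhythm was called without that library as well (P = 0.00289, n = 17). In IH the P of Mrps2 was 0.0205.

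Mrpl20 and Mrps30 were called in both conditions. Mrpl20, whose bacterial counterpart helps to assemble the large subunit, was highest at ZT12, with 67.2, 89.9 and 62.5 FPKM in control and 65.3, 66.9 and 59.7 FPKM in IH, and lowest at ZT4, with 48.7, 43.5 and 42.4 FPKM in control and 43.3, 42.7 and 46.0 FPKM in IH. Its ZT12 and ZT4 libraries did not overlap in either condition. Mrps30 peaked at ZT5.07 in control and ZT2.73 in IH, with log2 amplitudes of 0.14 and 0.15.

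In IH the called members split into a night and a day group. A fitted peak between ZT12 and ZT24 was found in 15 of the 27, and between ZT4 and ZT12 in 11, while Mrps30 peaked near ZT3. In the window from ZT16 to ZT20 lay 10 of the 27 (37.0%), where 12.2% of all 5273 genes called in IH peaked, and in that from ZT4 to ZT8 lay 8 (29.6%), against 28.1%. From ZT20 to ZT24 lay Mrpl1 alone (3.70%, against 18.6%), and from ZT0 to ZT4 Mrps30 alone (3.70%, against 22.2%). Log2 amplitudes ran from 0.11 to 0.38 with a median of 0.17, which is 1.16-fold to 1.70-fold from trough to peak, and the median over all genes called in IH was 0.22. By place in the particle, the called members were 13 of 30 large subunit genes with a bacterial counterpart, 5 of 20 mitochondrion-specific large subunit genes, 4 of 16 and 4 of 10 of the corresponding small subunit genes, and Mrps36.

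**Figure D3:**
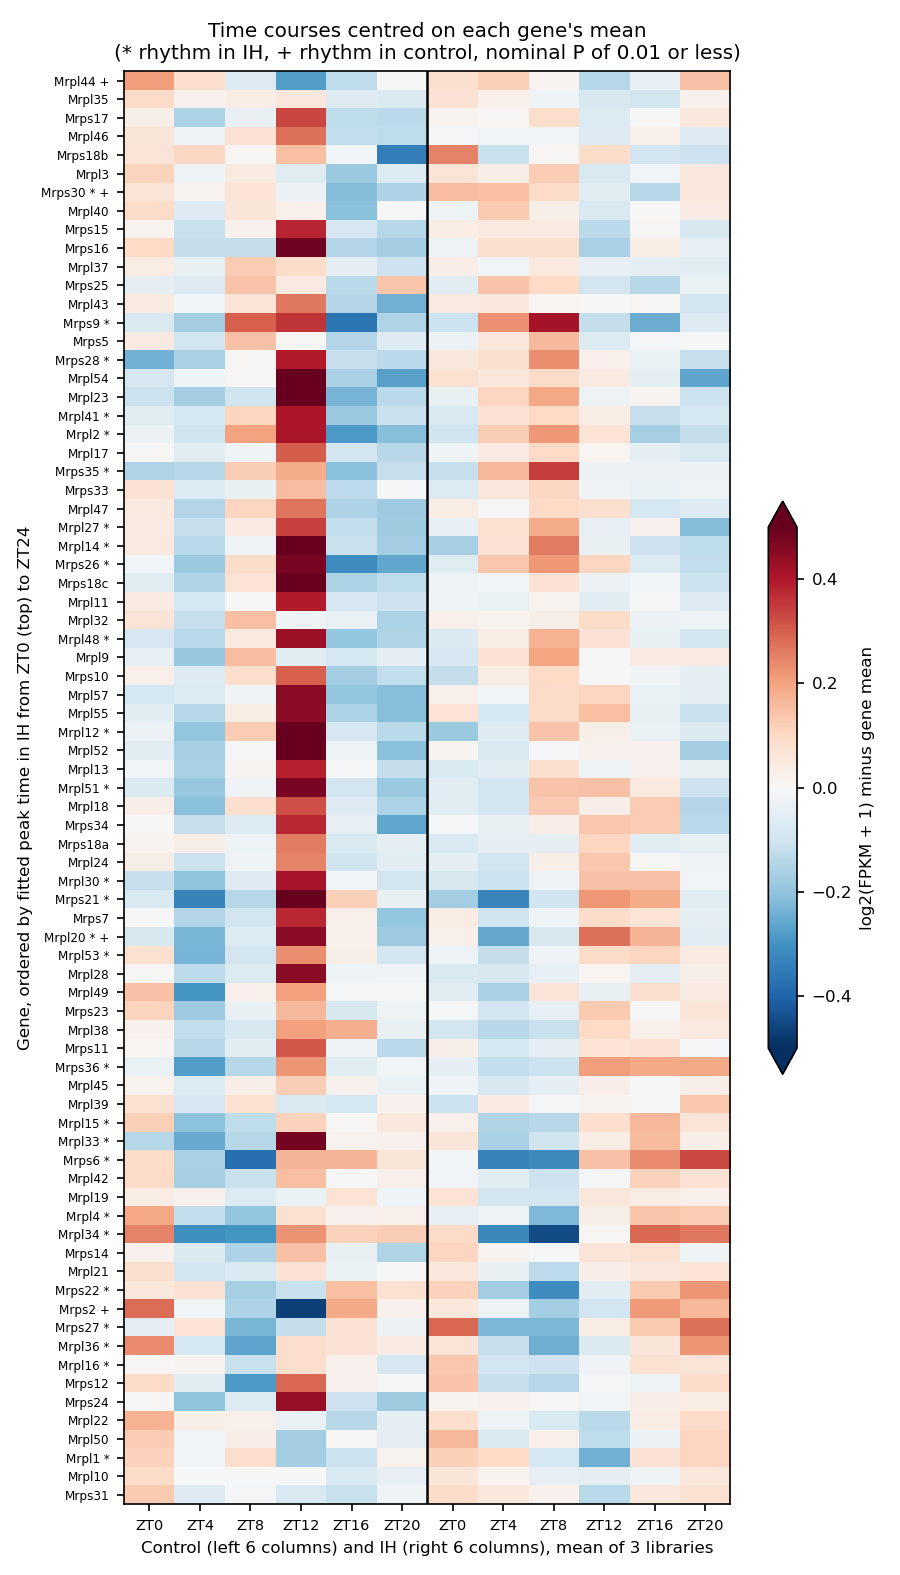
Mean of 3 libraries for each member, condition and time point on the log2(FPKM + 1) scale, centred on the gene's mean over all libraries, with genes ordered by the fitted peak time in IH. Stars mark the 27 members called rhythmic in IH and plus signs the 4 called in control. The control ZT12 column is high for most genes, which includes control ZT12 replicate 2. In the IH columns the day group lies in the upper part and the night group in the lower part. This placement is set by the ordering and is no evidence for 2 groups.

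Mrpl34, the small large-subunit protein with the ETS motif printed above, had the smallest P in IH (1.12e-07). Its IH libraries held 33.4, 32.4 and 37.5 FPKM at ZT4 and 29.9, 33.7 and 30.8 FPKM at ZT8, against 53.4, 51.2 and 54.5 FPKM at ZT16. The ZT16 libraries lay above all of ZT4 and ZT8, and the fitted swing was 1.70-fold with a peak at ZT18.5. In control the gene held 34.4, 38.5 and 31.8 FPKM at ZT4 and 44.2, 52.1 and 45.0 FPKM at ZT16, again with no overlap, and the fitted peak was at ZT18.1. The control P was 0.0155 over all libraries and 0.000273 without control ZT12 replicate 2, in which it stood at 68.6 FPKM.

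Mrps6, the homologue of bacterial S6, also peaked at night in IH. In IH it held 8.61, 9.64 and 9.73 FPKM at ZT4 and 15.0, 15.8 and 15.3 FPKM at ZT20 (P = 5.94e-07, n = 18, peak at ZT17.6). In control its P was 0.0186, and it was 0.000294 without control ZT12 replicate 2, with a peak at ZT17.8. Its annotated exons share bases on the same strand with Slc5a3, a myo-inositol transporter gene that was also rhythmic in IH (P = 0.000175, n = 18, peak at ZT17.2), so the values of both are uncertain as far as shared fragments could be given to either.

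Mrps21 is among the most abundant members. In IH it held 73.4, 80.8 and 90.0 FPKM at ZT4 and 107, 121 and 121 FPKM at ZT16 (P = 3.63e-06, n = 18, peak at ZT14.5). In control it stood at 133, 314 and 118 FPKM at ZT12, 314 FPKM being replicate 2, and P went from 0.0177 to 0.000152 when that library was left out.

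Mrps22 and Mrps27, both found only in mitochondria and both in the small subunit, had their lowest IH values in the day. Mrps22 held 12.5, 12.9 and 12.9 FPKM at ZT8 and 20.9, 17.9 and 18.1 FPKM at ZT20 in IH (P = 6.4e-06, n = 18), and 15.1, 13.4 and 14.2 FPKM and 17.2, 18.4 and 15.5 FPKM in control (P = 0.0886, n = 18, and 0.0515, n = 17, without control ZT12 replicate 2). Mrps27, which carries the pentatricopeptide repeats of RNA-binding proteins, held 14.5, 13.4 and 12.0 FPKM at ZT4 and 19.2, 20.4 and 18.0 FPKM at ZT20 in IH (P = 0.000368, n = 18), and 16.4, 16.9 and 16.0 FPKM and 14.8, 17.6 and 13.9 FPKM in control (P = 0.302, n = 18). The ZT4 values of Mrps27 in IH thus lay below all 3 controls, and those at ZT20 above them. The rest of the night group was Mrpl4, Mrpl15, Mrpl16, Mrpl20, Mrpl30, Mrpl33, Mrpl36, Mrpl53 and Mrps36, with fitted peaks in IH from ZT14.1 (Mrpl30) to ZT19.8 (Mrpl16), and Mrpl1 at ZT22.9.

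The day group held Mrpl2, Mrps9, Mrps26, Mrpl27, Mrpl41, Mrps35, Mrpl14 and Mrps28 with peaks from ZT5.97 to ZT7.77, and Mrpl48, Mrpl12 and Mrpl51 from ZT8.62 to ZT11.2. Mrpl2, the homologue of a bacterial protein at the core of the large subunit, held 46.6, 43.8 and 43.9 FPKM at ZT8 and 36.5, 32.9 and 33.1 FPKM at ZT16 in IH (P = 0.000151, n = 18). In control it held 41.2, 45.9 and 45.8 FPKM at ZT8 and 32.1, 33.2 and 28.8 FPKM at ZT16 (P = 0.0139, n = 18). Both sets were apart in both conditions, and the control libraries at ZT12, with 53.1, 65.5 and 38.9 FPKM, were spread more widely than any other group of this gene.

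Mrps9, the homologue of bacterial S9, had the earliest peak of the day group. In IH it held 14.3, 13.9 and 14.0 FPKM at ZT4, 17.0, 15.4 and 16.2 FPKM at ZT8 and 12.1, 9.63 and 10.9 FPKM at ZT12. In control it held 10.7, 11.6 and 9.00 FPKM at ZT4, 13.2, 15.6 and 15.8 FPKM at ZT8 and 16.5, 17.7 and 12.6 FPKM at ZT12. The IH libraries were above all controls at ZT4 and below all controls at ZT12. The fitted peaks were at ZT5.97 in IH and ZT9.06 in control. No rhythm of Mrps9 was called in control, with or without control ZT12 replicate 2, which held the 17.7 FPKM. Its control peak time therefore comes from a fit that did not pass.

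**Figure D4:**
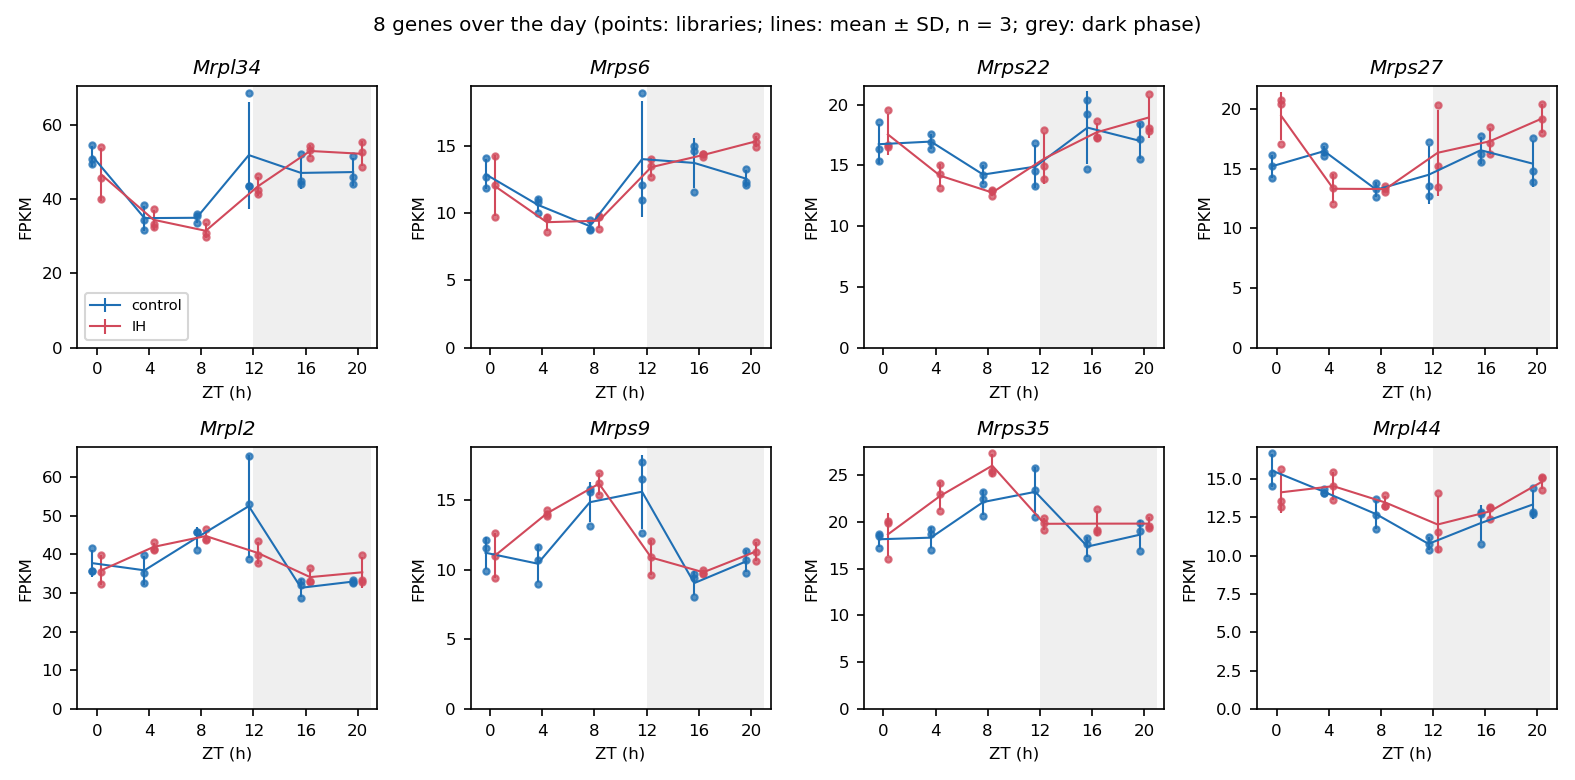
FPKM over sampling time (ZT, h) of 8 members in control (blue) and IH (red), with points for libraries, lines through the means and bars of 1 SD (n = 3). The upper row shows genes that peaked at night in IH, and the lower row 3 genes with a day peak in IH and Mrpl44. The isolated high control points at ZT12 in Mrpl34, Mrps6 and Mrpl2 are replicate 2.

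Other members from a fixed list were called in neither condition. Mrps12, the homologue of the S12 protein of the decoding centre, ranged from 38.8 to 51.4 FPKM in IH and, apart from replicate 2 at ZT12 (104 FPKM), overlapped with it in control. Its nominal P was 0.63 in control and 0.0104 in IH, and it was called in control without that library. The small subunit genes Mrps7, Mrps14, Mrps16, Mrps18b, Mrps18c and Mrps34 and the large subunit genes Mrpl3, Mrpl11, Mrpl24 and Mrpl28 were not called either, with nominal P values from 0.0489 (Mrps18b) to 0.682 (Mrps14) in control and from 0.037 (Mrpl24) to 0.935 (Mrps14) in IH. Mrps16 held 40.0, 97.1 and 35.3 FPKM in the ZT12 controls, the highest being replicate 2, and 30.2 to 41.2 FPKM over all IH libraries.

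A call in IH that is missing in control does not show that the rhythms differed, and no difference passed the test made for it. The interaction of condition with the cosine passed an adjusted p of 0.05 in 0 of 77 members and in 0% of all genes (limma), with the smallest adjusted p of a member at 0.92. At an unadjusted p of 0.05 it was passed by 2 members, Mrps28 (P = 0.0261, n = 36) and Mrps27 (P = 0.045, n = 36), and by 4.91% of all genes. The next were Mrps22 (P = 0.0698, n = 36) and Mrps15 (P = 0.0752, n = 36). Of the 27 members called in IH, 25 had a fitted control peak within 4 h of the IH peak, and 26 without control ZT12 replicate 2. Only 16 of the 27 had a nominal P under 0.05 in the control cosine fit, and 17 without that library. For the rest the control peak time comes from a fit with little support. Without that library 9 members were called in both conditions (Mrpl4, Mrpl20, Mrpl30, Mrpl33, Mrpl34, Mrpl36, Mrps6, Mrps21 and Mrps30), with a peak time in IH minus that in control of −2.87 h to 1.82 h.

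During hypoxia and at its end, ZT4 and ZT8 combined, 4 members passed the test for level. The fit on these 12 libraries called Mrps35, Mrpl23 and Mrps33 higher in IH (3.90% of members, against 6.05% of all genes) and Mrps22 lower (1.30%, against 1.93%), all by limma with Benjamini-Hochberg adjustment. Mrps22 and Mrps35 are mitochondrion-specific small subunit proteins, as is Mrps33, and Mrpl23 is the homologue of bacterial L23, which lies at the exit of the peptide tunnel. By place in the particle, the 4 called genes were 3 of 10 mitochondrion-specific small subunit genes and 1 of 30 large subunit genes with a bacterial counterpart. None lay in the other groups. The 3 small subunit genes did not share a direction, since Mrps22 was lower, and differences between the groups were not tested.

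Mrps35 ranged from 17.0 to 23.2 FPKM in the 6 control libraries (median 19.9) and from 21.2 to 27.4 FPKM in the 6 IH libraries (median 24.6). The ranges overlapped across the time points, although within ZT4 (18.7, 19.2 and 17.0 FPKM against 22.9, 21.2 and 24.1 FPKM) and within ZT8 (20.6, 22.5 and 23.2 FPKM against 27.4, 25.2 and 25.5 FPKM) they did not. The log2 difference was 0.26 ± 0.05 (SE; adjusted p = 0.0155, limma). With the time point left out of the model the same difference had an adjusted p of 0.124, and none of the 4 members was called.

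Mrpl23 ranged from 33.1 to 38.1 FPKM in control (median 34.3) and from 38.2 to 48.8 FPKM in IH (median 42.3), with no overlap over the 6 libraries each. Its log2 difference was 0.29 ± 0.06 (adjusted p = 0.0192). Mrps33 ranged from 21.4 to 22.4 FPKM in control and from 22.2 to 25.2 FPKM in IH, a log2 difference of 0.13 ± 0.04 (adjusted p = 0.0443). That call was lost under each of 3 other scalings, with adjusted p values of 0.147 to 0.33, and when any of the 12 libraries was left out, IH ZT4 replicate 1 excepted.

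Mrps22 was the only member called lower. It ranged from 13.4 to 17.6 FPKM in control (median 15.7) and from 12.5 to 15.0 FPKM in IH (median 13.0), and the log2 difference was −0.20 ± 0.04 (adjusted p = 0.0275). The call was lost with libraries rescaled to a common sum (adjusted p = 0.068) and without IH ZT4 replicate 2 or 3, IH ZT8 replicate 1 or 2, control ZT4 replicate 1 or control ZT8 replicate 1 (adjusted p of 0.0511 to 0.067). Without control ZT8 replicate 2, 7 members were called, against 10.2% of all genes. Beyond these, Mrps9 had a log2 difference of 0.26 ± 0.07 (adjusted p = 0.0507), Mrps27 −0.14 ± 0.06 (adjusted p = 0.166), Mrps18b −0.11 ± 0.05 (adjusted p = 0.189) and Mrpl19 −0.07 ± 0.04 (adjusted p = 0.313). The 95% intervals reached at most 0.18 to either side of the estimates in all 77 members.

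**Figure D5:**
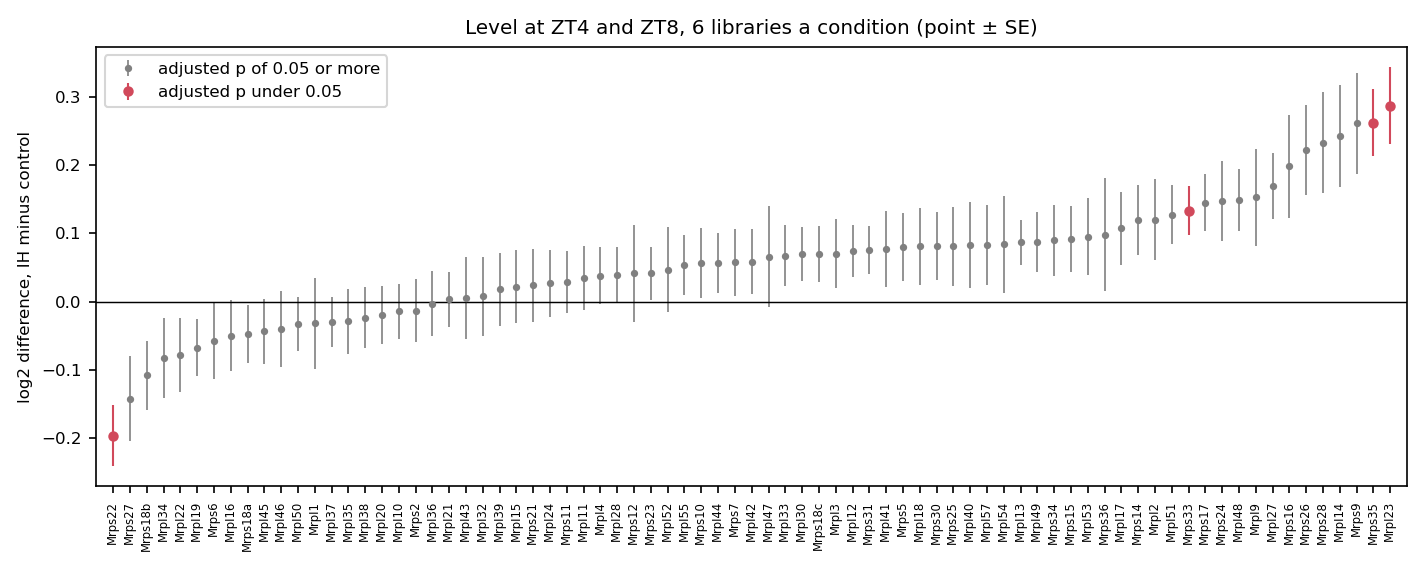
Log2 difference between IH and control at ZT4 and ZT8 for each of the 77 members, on the log2(FPKM + 1) scale, with bars of 1 SE and 6 libraries per condition. Red points mark the 4 members with an adjusted p under 0.05, of which Mrps22 lies at −0.20 and Mrpl23 at 0.29, and most other members lie between −0.1 and 0.2.

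The members as a list had a median log2 difference of 0.06 at ZT4 and ZT8, with 57 of 77 above 0, against a median of 0.04 over all genes. When libraries were scaled by the median of ratios the members' median was −0.0035 and that of all genes 0.00021, so the sign of the list's median depends on the scaling. Among the genes set beside it, 40 of 85 cytosolic ribosomal protein genes and 12 of 45 complex I genes were called higher in IH and 0 lower, with median log2 differences of 0.17 and 0.15.

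At single time points, 2 calls were made and both at ZT12, 4 h after the end of the daily hypoxia. The shares of all genes called were 0% at ZT0, 1.16% at ZT4, 0.00757% at ZT8, 0.772% at ZT12, 0.00757% at ZT16 and 0% at ZT20, and of the members 0, 0, 0, 2, 0 and 0 were called. The 2 were Mrps9 (log2 difference −0.48 ± 0.11, adjusted p = 0.0471) and Mrps15, the homologue of bacterial S15 (−0.52 ± 0.13, adjusted p = 0.0493), by limma. Mrps15 held 27.2, 44.5 and 24.7 FPKM in control and 24.3, 20.8 and 19.5 FPKM in IH, the highest being control ZT12 replicate 2.

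The ZT12 calls were lost when most single libraries were left out, also those of other time points, which enter the shared spread. Of the 36 libraries left out in turn, 26 left 0 calls at ZT12, 5 left 1 and 5 left 2 or more. Without control ZT12 replicate 2, 0 members were called at ZT12, and the differences were −0.38 for Mrps9 (adjusted p = 0.21) and −0.26 for Mrps15 (adjusted p = 0.229). Without control ZT12 replicate 3 there were 39 calls at ZT12 (23.6% of all genes), and without control ZT12 replicate 1 there were 26 (15.6% of all genes). Over all libraries the members' median log2 difference at ZT12 was −0.19 with 68 of 77 below 0, against 0.03 over all genes, and without control ZT12 replicate 2 the medians were −0.06 and −0.04. At an unadjusted p of 0.05, 35 members were lower (45.5%, against 11.7% of all genes) and 1 higher (Mrps2, 0.37 ± 0.14; 12.9% of all genes) at ZT12. With control ZT12 replicate 2 left out, 7 members were lower (9.09%, against 9.91% of all genes) and 1 was higher.

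At ZT4 the members with the smallest p were Mrps9 (0.40 ± 0.11, adjusted p = 0.0672) and Mrps35 (0.30 ± 0.09, adjusted p = 0.0747), both called when control ZT12 replicate 2, which enters the shared spread, was left out. On the other side stood Mrps27 (−0.29 ± 0.11) and Mrps22 (−0.25 ± 0.11). At ZT0 the differences of smallest p were those of Mrps27 (0.33 ± 0.11) and Mrps28 (0.30 ± 0.13) above 0, and of Mrpl4 (−0.23 ± 0.10) and Mrpl49 (−0.20 ± 0.11) below 0. Mrps27 was also first at ZT20 (0.30 ± 0.11), with Mrps30 (0.21 ± 0.10) next. Mrps35 and Mrpl14 led at ZT8 (0.23 ± 0.09 and 0.28 ± 0.15), and Mrps36 and Mrps35 at ZT16 (0.25 ± 0.11 and 0.18 ± 0.09). None of the differences at ZT0, ZT8, ZT16 and ZT20 passed the adjusted threshold. Mrps35 thus had a positive estimate at ZT4, ZT8 and ZT16, and a negative one at ZT12 (−0.21).

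Whether the IH effect changed over the day was tested by the interaction of condition with time point. It passed in 0 of 77 members and in 0.136% of all genes, with the smallest adjusted p at 0.0855 for Mrps9, followed by Mrps35 (0.163), Mrps27 (0.187) and Mrps17 (0.193). At an unadjusted p of 0.05 it was passed by 17 members (22.1%) and 14.2% of all genes. Without control ZT12 replicate 3 it passed in 13 members and in 5.07% of all genes, and without control ZT12 replicate 2 in 0 members. The single contrast of the effect at ZT12 against that at ZT4 was below 0 in 68 members and passed in 10 of them (13.0%), against 3.87% of all genes called in that direction. The 10 were Mrps9, Mrps35, Mrps15, Mrps26, Mrps17, Mrpl14, Mrpl27, Mrpl2, Mrpl23 and Mrpl41, of which 6 remained called without control ZT12 replicate 2. With Mrps27, which had the opposite sign, 7 members (9.09%) were called there, against 10.4% of all genes. Without IH ZT4 replicate 1, 2 or 3 the calls were 4, 2 and 2, without IH ZT12 replicate 1, 2 or 3 they were 6 (Mrps27 among them), 1 and 3, and without control ZT4 replicate 1 or 3 they were 2 and 1. There were 33 without control ZT12 replicate 3, against 15.8% of all genes, and without any other single library 7 to 14. There were 5 calls with no filter and 5 after rescaling to a common sum. With the length and GC trend removed there were 4, after quantile normalization 3 and under the median of ratios 2. Where no share of all genes stands beside one of these counts, it does not set the members apart.

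For Mrps9 the effect was 0.88 lower at ZT12 than at ZT4 on the log2 scale over all libraries (SE 0.16, adjusted p = 0.005) and −0.78 without control ZT12 replicate 2 (adjusted p = 0.00624). For Mrps35 it was −0.51 in both cases (adjusted p = 0.0159 and 0.0149). Both genes belong to the day group described above, and in both the control mean was highest at ZT12 and the IH mean at ZT8. For Mrps9 the ZT12 control mean includes 17.7 FPKM in control ZT12 replicate 2, and without that library its control mean was highest at ZT8.

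Besides the members, 5 lists covered the rest of the mitochondrial translation system. Their shares rhythmic in IH ran from 38.1% to 42.9%, near the 39.9% of all genes. In control 20.0% of all genes were rhythmic. At ZT4 and ZT8 6.05% of all genes were called higher in IH and 1.93% lower. A list of 7 genes held mitoribosome proteins with other names and Oxa1l, which encodes an inner membrane insertase bound by the ribosome and no ribosomal protein. In IH 3 of the 7 (42.9%) were rhythmic and in control 0. They were Ptcd3 (small subunit; P = 5.17e-05, n = 18, peak at ZT17.3), Oxa1l (P = 0.00312, n = 18) and Dap3 (small subunit; P = 0.00771, n = 18). Of 15 translation factors 6 (40%) were rhythmic in IH and 5 in control. At ZT4 and ZT8 2 of them were lower in IH. These were Gfm2, which recycles the ribosome (−0.19 ± 0.04, adjusted p = 0.0175), and Taco1, an activator of Cox1 translation (−0.21 ± 0.05, adjusted p = 0.0351). Lrpprc, which stabilises mitochondrial mRNAs, was rhythmic in control (P = 0.00124, n = 18, peak at ZT12.0) and IH (P = 6.89e-06, n = 18, peak at ZT12.6). The elongation factor Tufm was not called in either (P = 0.958 and 0.0192, n = 18 each).

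Of 20 genes for mitochondrial aminoacyl-tRNAs 8 (40%) were rhythmic in IH and 3 in control, and 0 differed at ZT4 and ZT8. Sars2, the seryl-tRNA synthetase gene that starts back to back with Mrps12, peaked at ZT1.68 in IH (P = 0.000158, n = 18), and Mrps12 at ZT20.6 (P = 0.0104, n = 18). Over the 18 head-to-head neighbours that were tested, 6 members and 10 neighbours were rhythmic in IH and in 4 pairs both were. Of all genes 39.9% were rhythmic in IH. The fitted peaks in IH of these 4 pairs were apart. They were at ZT7.29 and ZT11.9 for Mrpl2 and Klc4, and at ZT14.1 and ZT22.7 for Mrpl30 and Mitd1. For Mrpl41 and Pnpla7 they were at ZT7.26 and ZT1.69, and for Mrpl51 and Ncapd2 at ZT11.2 and ZT4.61. Mrpl36 (peak at ZT19.8, P = 0.000515, n = 18) and its neighbour Ndufs6 (P = 0.0905, n = 18) were not called together.

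Of 21 assembly and rRNA modification genes 8 (38.1%, against 39.9% of all genes) were rhythmic in IH and 2 in control. At ZT4 and ZT8 2 of them were higher in IH. These were Mrm1, a methyltransferase of the large rRNA (0.26 ± 0.06, adjusted p = 0.0301), and Rbfa, a small subunit assembly factor (0.21 ± 0.06, adjusted p = 0.0381). Among 12 factors of mitochondrial transcription and biogenesis 5 (41.7%) were rhythmic in IH and 2 in control. Esrra, a nuclear receptor for mitochondrial genes, was higher in IH at ZT4 and ZT8 (0.41 ± 0.07, adjusted p = 0.0144). Tfam (0.13 ± 0.07, adjusted p = 0.27), Gabpa (0.11 ± 0.06, adjusted p = 0.243), Nrf1 (0.07 ± 0.07, adjusted p = 0.558) and Ppargc1a (0.05 ± 0.06, adjusted p = 0.569) did not pass. Gabpb1, the partner subunit of Gabpa, was rhythmic in both conditions with peaks at ZT2.61 in control and ZT2.96 in IH.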

How the data were processed

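Poly(A) RNA of 36 livers was sequenced as stranded paired-end libraries, and the authors deposited 1 table of FPKM values per condition. TopHat2 2.1.1, Cufflinks 2.2.1 and mm10 are named in the submitters' processing notes; the gene annotation and library scaling are not given in the sources used here. Depth is unknown, since FPKM values hold no counts. The 2 tables were assigned to IH and control by their names, and 0 columns were left unused. The tables held 24883 rows, and 280 symbols on more than 1 row were left out.

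Values were tested as log2(FPKM + 1) with limma 3.58.1 (R 4.3.3) with a mean-variance trend over 13215 genes whose mean reached 0.1 FPKM, and p values were adjusted by Benjamini-Hochberg over all of them; fold changes on this scale understate those of low genes. Rhythms were 24 h cosines at a nominal P of 0.01. The scripts were tested on simulated data. Alternatives were the pseudocount, the filter, 4 scalings, other rhythm tests, a replicate block and leaving out libraries; leaving out 3 libraries with Saa1 above 10000 FPKM was added after seeing the data. Same-numbered replicates did not deviate together (mean r of 0.054 over 18 pairs). The members, gene lists and tests were chosen with earlier results of these data known. Genes were named by the smallest p in each test (4 for the rhythms and interactions, 4 per direction for the levels and 2 per direction at single time points), by the 3 highest and 3 lowest levels and from a fixed list, and from other lists by the smallest p, with at most 4 a list and test. Slc5a3, Sars2, Ndufs6, Klc4, Mitd1, Pnpla7, Ncapd2 and the members given with a day peak were named for their place beside such genes.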

Additional observations from a re-analysis of the deposited data

Results flagged for a closer look

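For 10 members the IH effect at ZT12 differed from that at ZT4 (limma contrast, adjusted p of 0.005 to 0.0488). These were 13.0% of the members, against 3.87% of all genes called in that direction. The log2 difference between the effects was −0.88 for Mrps9, −0.51 for Mrps35, −0.68 for Mrps15, −0.69 for Mrps26, −0.57 for Mrps17, −0.74 for Mrpl14, −0.57 for Mrpl27, −0.57 for Mrpl2, −0.91 for Mrpl23 and −0.53 for Mrpl41. Without control ZT12 replicate 2, Mrpl14, Mrpl27, Mrpl2 and Mrpl41 no longer passed, with adjusted p values of 0.0533 to 0.0791, and the estimate for Mrpl23 was −0.46. Mrps27 also passed there, with an opposite sign. In that fit 10.4% of all genes passed in either direction, a larger share than that of the members. When libraries were scaled by the median of ratios 2 of the 10 passed, and with the length and GC trend removed 3 of the 10. The part played by the higher values of short genes in control ZT12 replicate 2 was not tested.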

How the results depend on the processing

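In control, 12 members were rhythmic after quantile normalization, 15 with the length and GC trend removed and 10 without the ZT12 libraries. There were 12 without the 3 libraries of high Saa1 (control ZT12 replicate 2, which alone gives 13, is one of them). JTK_Cycle called 10 in control (19.2% of all genes), an F test over the time points 21 (21.0%) and a spread shared by both conditions 24 (28.5%). In IH there were 16 by the F test (39.7% of all genes) and 12 with the shared spread (31.5%). The share of all genes in control was 20.0% in the main fit and 27.1% without control ZT12 replicate 2. Where no share of all genes stands beside a count, the count alone does not set the members apart. The cause of these changes was not tested. Over all time points 6 members differed in level without the ZT12 libraries, where 4.59% of all genes did. In that fit the differences of Mrpl28 (0.0049) and Mrps21 (0.00023) changed sign, and 1 member had an effect that varied over time. At ZT4 and ZT8, 8 members were called with a filter at 1 FPKM, which leaves fewer genes tested, and 0 with the time point not in the model. At single time points 0 calls were made with no filter, after rescaling to a common sum and with each time point fitted alone, and 1 under the median of ratios, quantile normalization and removal of the length and GC trend. With the replicate number as a block, though the numbers did not pair the samples (6 of 18 pairs correlated over 0.1, and 9 best with their own number), counts were 3 for rhythms in control, 26 in IH, 4 at ZT4 and ZT8 and 0 at single time points.

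Leaving out 1 library gave 3 to 13 rhythms in control (13 without control ZT12 replicate 2), 19 to 30 in IH, 2 to 7 calls at ZT4 and ZT8, 0 to 40 at single time points (40 without control ZT12 replicate 3, 26 without replicate 1), 0 to 13 for the effect over time, and 0 for the interaction with the cosine and for the level over all time points. The ZT20 difference of Mrpl27 ran from −0.072 to 0.00083. Of 1600 recomputed values of single genes, 75 lost a call, 15 gained one and 3 changed sign. Depth is unknown, so its part in these spreads could not be examined.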
